A study of Mus musculus with 14 samples.

Results

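The baseline described here is the whole-lung transcriptome of 3 mice that received phosphate-buffered saline into the trachea and no fibre, taken 6 months later. The 3 lungs are the arrays whose titles carry the group name Ctrl, out of 14 arrays in the study, and are called lungs 1, 2 and 3 after their replicate numbers. All mice were male C57BL/6N animals; their age is not given in the labels. The other 11 arrays hold lungs given 200 µg of carbon fibre per mouse, before recycling (VCF, 4 arrays), after carbonization (CCF, 3) or after firing (RCF, 4), and serve below only as a range to set beside the saline lungs. The question is which genes of the lung, of immune cells and of blood gave bright, undetected or variable signal in lungs without fibre.

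The lung exchanges gas across alveoli lined by flat type 1 cells and by cuboidal type 2 cells, which make surfactant. Its conducting airways carry club cells, which secrete protective proteins and metabolise foreign compounds, ciliated cells, which move mucus, and a few mucus-making goblet cells. Around them lie a dense capillary bed, fibroblasts, smooth muscle and resident macrophages. Blood, with its red cells, platelets, neutrophils and lymphocytes, fills the vessels, and heart-type muscle continues into the walls of the large pulmonary veins in mice. In RNA of a whole lung, fewer cells of a type and less RNA per cell cannot be told apart.

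Signal was read on one-colour oligonucleotide arrays. A level is the log2 processed signal of a gene's brightest probe minus the 75th percentile of that array, so a level of 0 is as bright as the 75th-percentile probe and each unit is a doubling. The 75th percentile was 728 intensity units in lung 1, 1346 in lung 2 and 1309 in lung 3. In the same order 63.4%, 69.2% and 69.4% of probes were well above background by the scanner software's flag, within the 63.1% to 70.5% of all 14 arrays, and no spot was saturated. The 3 arrays lay on 3 different slides, each shared with fibre arrays, so among the saline lungs slide and lung cannot be told apart. Brightness also depends on the probe. In 4606 genes with a further probe that was well above background on all 3 arrays, the probes of 1 gene differed by a median of 2.12 in level. Actb, a cytoskeletal actin that cells make in quantity, was read at only -1.80, -2.27 and -1.11. Levels of different genes are therefore given as an order of probes and not of RNA amounts.

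Of 17170 named genes, 13539 (78.9%) were well above background in 3 of 3 lungs and 2604 (15.2%) in none. A further 602 genes were so in 2 lungs and 425 in 1. The lungs carried the markers of their label. All 13 measured markers of type 2 cells, all 11 of type 1 cells, all 12 of club cells, all 12 of ciliated cells and all 20 of capillary endothelium were well above background in 3 of 3 lungs. The Y-linked genes Ddx3y, Eif2s3y, Kdm5d and Uty were detected in each lung, and Xist, the RNA that silences an X chromosome in females, in none.

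Secretory genes of alveolus and airway headed the order of brightness. Sftpc, which encodes surfactant protein C of type 2 cells, was the brightest gene, at 9.44 in lung 1, 8.75 in lung 2 and 8.77 in lung 3 (mean 8.99 ± 0.39, SD, n = 3). Scgb1a1, the main secretory protein of club cells, followed at 9.10, 8.72 and 8.64 (mean 8.82 ± 0.25, SD, n = 3). Cbr2, a carbonyl reductase abundant in lung, was 3 in order at 9.12, 8.58 and 8.57. Lung 1 was the highest of the 3 for each of these genes, and lungs 2 and 3 lay close together. Lung 1 also read higher at the bright end in general: over the 100 brightest genes its level exceeded the mean of the others by a median of 0.18, against -0.005 over all genes detected in 3 of 3 lungs. Wfdc2, a secreted protease inhibitor-like protein of airway epithelium, stood at 8.62, 8.24 and 8.14.

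Of the 100 brightest genes, which had levels of 6.97 and above, 42 encode cytosolic ribosomal proteins and 15 belong to the lists of lung cell types. Only 6 belong to the immune lists and 1 to the blood lists. Among the 20 brightest were the ribosomal genes Rps14 (8.57 ± 0.27, SD, n = 3), Rps18 (8.47 ± 0.16), Rpl7a (8.41 ± 0.22) and Rplp0 (8.16 ± 0.34), with Fau, Rps23, Rps27, Rps29, Rpl41, Rpl37a and Rps2 between 8.08 and 8.39. The others were Fth1, the heavy chain of the iron store ferritin, at 8.30, Myl6, a myosin light chain of non-muscle and smooth muscle cells, at 8.21, Cox6a1, a subunit of mitochondrial cytochrome oxidase, at 8.11, and Gstm1, a glutathione transferase, at 8.07. Next in order came Hp, the haemoglobin-binding acute phase protein haptoglobin, at 8.37, 7.92 and 7.91.

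Most markers of the alveolar cell types were bright. In type 2 cells Sftpa1, a collagen-like surfactant protein, stood at 7.98, 7.83 and 7.79, and Lyz1, a lysozyme, at 7.91, 7.36 and 7.35. Sftpb, the other hydrophobic surfactant protein, gave a much dimmer probe, at 3.01, 2.08 and 2.53, and had the largest SD of the type 2 list (0.47). In type 1 cells Gprc5a stood at 7.27, 7.09 and 7.06, the caveolar protein Cav1 at 7.04, 7.20 and 7.11, and Hopx, a homeodomain protein, at 6.99, 6.84 and 6.82. The 3 lungs lay within 0.21 of each other for all 3 genes. Pdpn, the mucin-like podoplanin, was dim and the most variable of the list, at -0.05, -1.31 and -1.29, and Ager, the receptor RAGE, stood at 5.74, 4.90 and 5.65, low in lung 2.

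The club cell genes behind Scgb1a1 and Cbr2 included Cyp2f2, a cytochrome P450 that activates inhaled aromatic compounds, at 8.30, 7.98 and 7.89. Scgb3a1, a secretoglobin of larger airways, varied most in the club list, at 4.99 in lung 1 against 6.50 and 6.26 in the others. Ciliated cells were represented by Tppp3 at 5.72, 5.45 and 6.08 and by Dynlrb2, a light chain of the dynein motor, at 4.94, 5.83 and 5.76. Basal cell markers were dim, led by the water channel Aqp3 at -0.07, -0.28 and -1.02, and the median level of the neuroendocrine list was -3.07. In that list the ubiquitin hydrolase Uchl1 was level at 1.46, 1.50 and 1.58, while Calca, the gene of the peptide CGRP, stood at -0.69, 1.30 and 0.57, lowest in lung 1.

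Endothelium gave Epas1, the hypoxia-inducible factor of vessels, at 7.68, 7.50 and 7.45, Ramp2, an adrenomedullin co-receptor, at 6.96, 7.08 and 6.95, and the tight junction gene Cldn5 at 6.70, 6.56 and 6.37. Vwf, the von Willebrand factor of larger vessels, stood at 6.55, 5.92 and 6.04, highest in lung 1. The 3 brightest fibroblast genes were at least as bright. Inmt, a methyltransferase, stood at 8.22, 7.93 and 7.97, and Gsn, the actin-severing gelsolin, at 8.11, 7.77 and 7.81. Mgp, an inhibitor of calcification, stood at 7.59, 7.22 and 7.20. Lung 1 was again the highest for these 3 genes. Over the whole lists the median level was 3.14 for fibroblasts and 4.38 for capillary endothelium. The most variable smooth muscle gene, the calponin Cnn1, was lowest in lung 1, at 3.94 against 5.26 and 4.72. Msln, the mesothelin of the pleural surface, was nearly level at 4.93, 4.89 and 5.06.

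**Figure D1:**
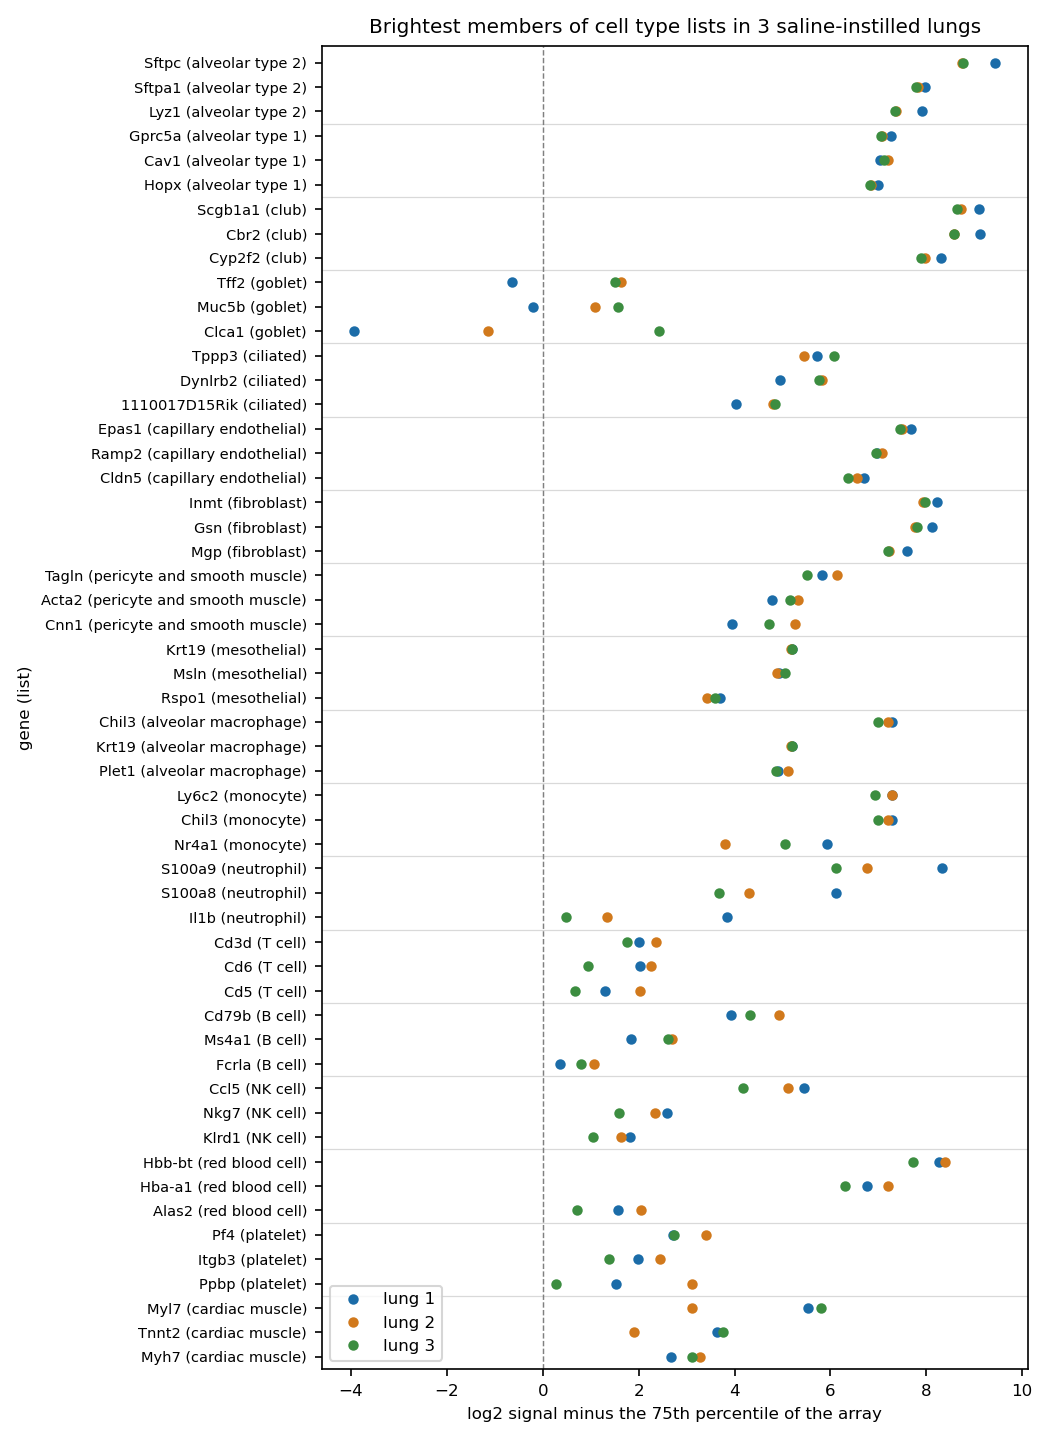
The x axis gives the log2 signal minus the 75th percentile of the array, and each row is one of the 3 brightest detected members of a list, with 1 point per saline lung (blue lung 1, orange lung 2, green lung 3; points can cover each other). Sftpc, Scgb1a1 and Cbr2 lie farthest right, the alveolar and endothelial rows are tight, and Clca1, Il1b and Myl7 spread widely.

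The 6 immune list genes among the 100 brightest were Hp, C3, Chil3, Ly6c2, S100a9 and Cd74. Chil3, a chitinase-like protein of alveolar macrophages and some monocytes, stood at 7.28, 7.20 and 6.99, and Ly6c2, a surface protein of classical monocytes, at 7.28, 7.28 and 6.92. Apoe, a lipid carrier that is also made by other cells, stood at 7.09, 6.71 and 6.65. S100a9, a subunit of the calprotectin pair of neutrophils, had a mean of 7.06, but lung 1 lay far above the others (8.33 against 6.76 and 6.11). In antigen presentation Cd74, the invariant chain, stood at 6.92, 7.14 and 6.87, and the class II beta chain H2-Ab1 at 6.23, 6.23 and 5.84. All 9 genes of that list were lowest in lung 3, by 0.32 in the mean. Complement C3 stood at 7.69, 7.42 and 6.88.

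Lymphocyte markers lay lower. Ccl5, a chemokine of T and NK cells, stood at 5.45, 5.12 and 4.18, the B cell receptor subunit Cd79b at 3.92, 4.92 and 4.32, and the T cell receptor subunit Cd3d at 2.00, 2.37 and 1.76. Of the chemokines, Cxcl15, a lung epithelial chemokine, was steady at 5.33, 5.11 and 5.33, while Ccl6, a chemokine of macrophages, stood at 5.97, 5.51 and 4.79. Il33, an alarm signal stored in nuclei of lung cells, was the brightest of the cytokine list, at 2.90, 3.33 and 3.25.

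Blood was represented by its globins. Hbb-bt, an adult beta-globin gene, was 17 in order of brightness, at 8.26 in lung 1, 8.40 in lung 2 and 7.72 in lung 3 (mean 8.13 ± 0.36, SD, n = 3), and the alpha-globin gene Hba-a1 stood at 6.76, 7.20 and 6.30. Globin genes have near-identical copies, which these probes may not separate. Alas2, which starts the making of haem in developing red cells, stood at 1.57, 2.06 and 0.71. Lung 2 was the highest and lung 3 the lowest for all 3 genes. Slc4a1, the anion exchanger of red cells, was highest in lung 1 instead, at -0.70, -2.17 and -2.91. The rest of the red cell list was dim: of 16 measured members 10 were detected in 3 of 3 lungs, against 78.9% of all genes, and Rhag, which encodes an ammonium channel of the red cell membrane, in none.

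Genes detected in no lung were few in the lung lists and more frequent in the lists of other tissues. In the immune lists they included Elane, a granule protease of neutrophil precursors, the chemokines Cxcl2 and Ccl22, Foxp3 of regulatory T cells, Epx, the eosinophil peroxidase, Tpsb2, a mast cell tryptase, and the cytokines Il5, Csf3 and Il22. These were picked as genes detected in no lung, a state shared by 15.2% of all genes. By list they were 3 of 18 cytokine, 2 of 24 chemokine, 2 of 19 neutrophil and 1 of 12 dendritic genes. For T cells it was 1 of 18, for eosinophils and basophils 1 of 11 and for mast cells 1 of 7. Cxcl2 and Ccl22 each stand in several of these lists, and the remaining immune lists had no such gene. In the airway Foxa3, a goblet cell regulator, was below background, as was Matn1 of cartilage. Of genes that mark tissues near the lung, Apoa1, Fga and Ttr of liver, Lep of fat, and Rag1, Rag2, Ptcra and Arpp21 of thymus were below background, although Trf, Cfd and Cd1d1 from the same lists were detected at mean levels of 3.19, 4.04 and 1.52. Lep was the only fat gene detected in no lung: 9 of 11 measured fat genes were detected in 3 of 3 lungs. For liver it was 6 of 11 genes. The smallest shares detected in 3 of 3 lungs were in lists of tissues that a lung sample should lack. They were 1 of 5 thyroid, 3 of 8 oesophagus, 3 of 8 pancreas and 3 of 7 thymus genes. The neuron and testis lists each had 5 of 10. The skeletal muscle list went the other way, with 9 of 10. Below background says only that a probe gave no signal well above its surroundings, since an absent RNA and a weak probe look alike. Of 886 olfactory receptor genes 595 (67.2%) and of 127 vomeronasal receptor genes 90 (70.9%) were detected in no lung, while 154 and 19 were detected in all 3, at median levels of -5.25 and -5.44. The dimmest signal that the flag still passed lay at -6.36 in lung 1, -7.20 in lung 2 and -7.03 in lung 3, which puts the detected receptors near the dim end.

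Some genes, read at their brightest probe, passed in 1 lung only. The brightest of them were Vmn2r89, a vomeronasal receptor, at -3.34 in lung 1, Olfr137, an olfactory receptor, at -4.30 in lung 2, and Zfp334, Gk2 and Lalba, the last a milk protein, at -3.27, -3.54 and -3.98 in lung 3. In the remaining lungs each of the 5 lay between -9.46 and -7.15. Another probe of Vmn2r89 was well above background in 3 of 3 lungs. Zfp334, Gk2 and Lalba were detected in 0 of 11 fibre lungs, Vmn2r89 in 1 and Olfr137 in 2.

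**Figure D2:**
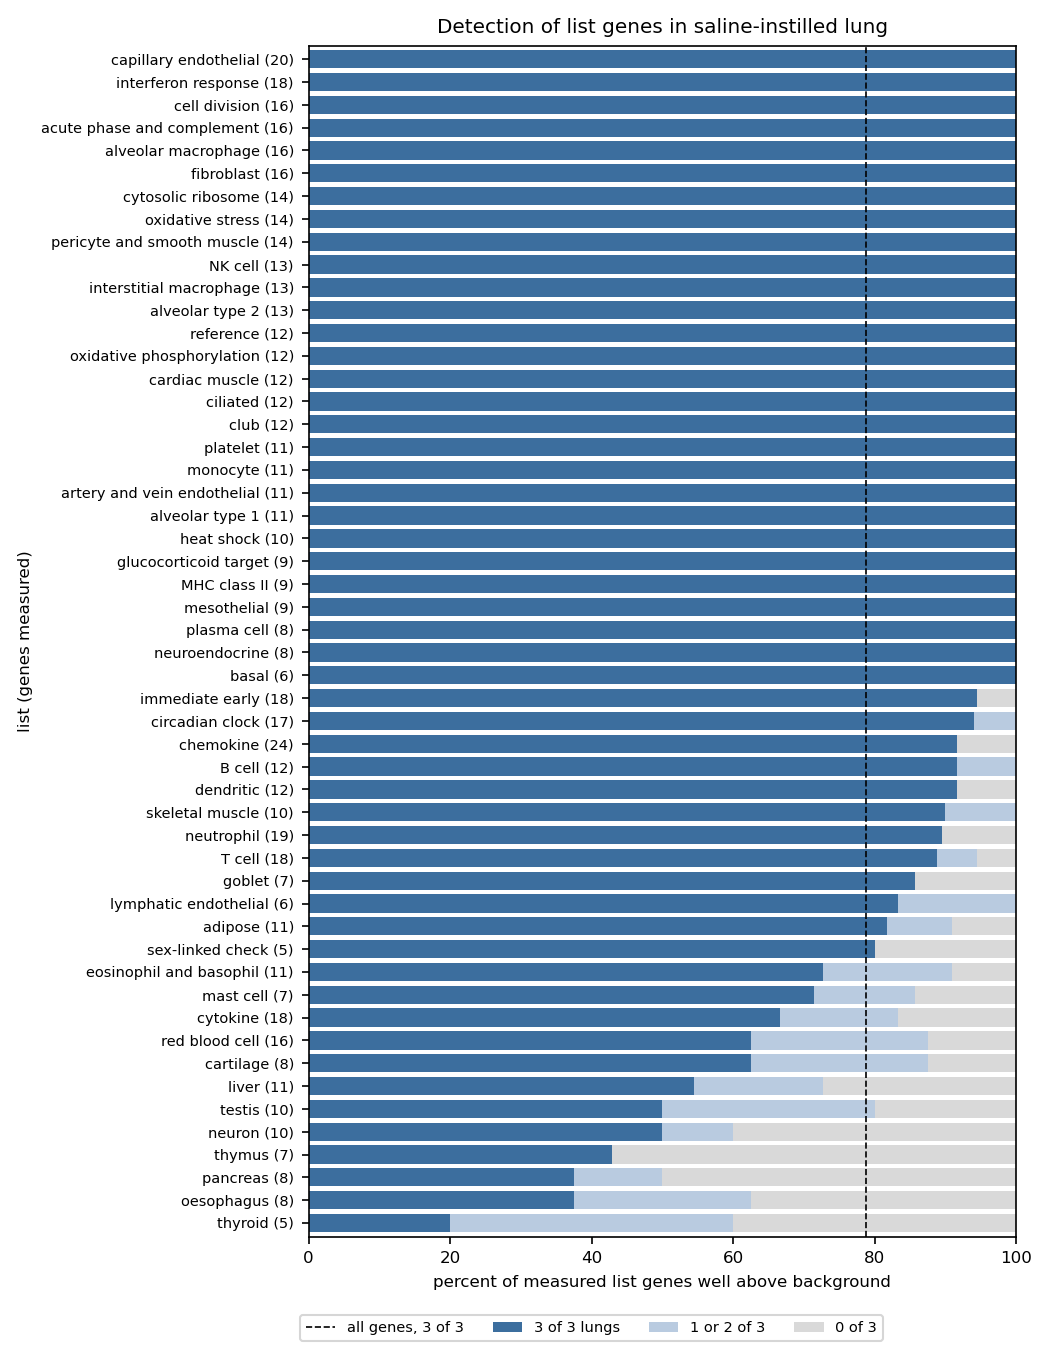
The x axis gives the percent of each list's measured genes that were well above background in 3 of 3 saline lungs (dark), in 1 or 2 (pale) or in 0 (grey), with the number measured beside the list name; the dashed line is the 78.9% of all genes. In 28 of 52 lists all measured genes were detected in 3 of 3 lungs, and 12 lists, among them red blood cell, liver, thymus and thyroid, lie below the line.

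The 3 lungs were close for most genes. Among the 13539 genes detected in 3 of 3 lungs the median SD was 0.205 on the log2 scale, 95% of genes had an SD of 0.659 or less, and 190 genes (1.4%) had an SD over 1. That count rests on the background correction: with normexp it was 1576, and 24 of the 100 genes of largest SD were shared. The spread was larger in dim genes, with a median SD of 0.331 below a level of -4 and 0.147 above a level of 4. Spots of 1 probe repeated on 1 array differed less than lungs did: over 189 probes printed up to 10 times per array the median SD was 0.063 between spots and 0.247 between lungs, and the lungs had the larger SD for 175 of them (92.6%).

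List means differed between their highest and lowest lung by 0.09 for basal cells, 0.10 for alveolar macrophages and for capillary endothelium, 0.12 for the reference genes, 0.17 for heat shock genes, 0.19 for type 2 cells and 0.22 for type 1 cells, and by up to 2.17 for goblet cells. A level mean can hold members that differ: in the alveolar macrophage list the scavenger receptor Marco stood at 3.99, 3.15 and 2.06, highest in lung 1, and the lectin Siglecf at -0.47, -0.12 and 0.18, highest in lung 3. The 5 genes of smallest SD among the 1000 brightest were Chchd2, a mitochondrial protein (6.67, 6.68 and 6.68), the RNA helicase Ddx5 (4.54, 4.54 and 4.53), the keratin Krt19 (5.19, 5.19 and 5.20), the peroxiredoxin Prdx6, an antioxidant and phospholipase of surfactant turnover (7.21, 7.23 and 7.22), and Ndufb10 of respiratory complex I (6.23, 6.24 and 6.26). Their SDs of 0.003 to 0.011 lie below the median of 0.063 between repeated spots, so they do not show these genes to be the steadiest. A further probe of Prdx6 had an SD of 0.183. Gapdh, often used as a reference gene, had an SD of 0.36, at 5.29, 4.62 and 5.18, and Ywhaz 0.65, at 1.69, 0.82 and 0.42. Hprt (SD 0.16) and Tfrc (0.16) were steadier than the median gene, and Sdha, Gusb, Tbp and B2m were less steady, at 0.22 to 0.35.

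**Figure D3:**
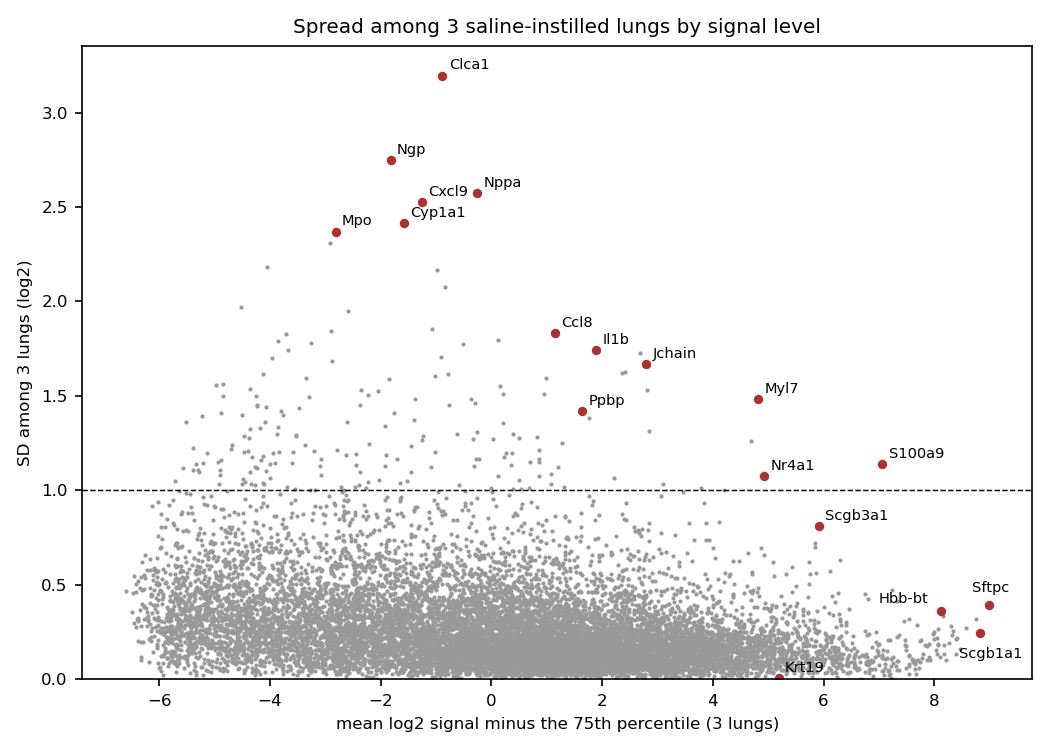
Each grey point is 1 of the 13539 genes detected in 3 of 3 saline lungs, by mean level (x axis, log2 signal minus the 75th percentile of the array) and SD among the lungs (y axis, log2), with named genes in red and a dashed line at an SD of 1. Most genes lie under 0.5, Clca1 is the highest at 3.20, and S100a9, Nr4a1 and Myl7 stand out among bright genes.

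Of the 20 genes that varied most, 10 belong to the lists, among them the neutrophil genes Ngp, Mpo and Camp and the chemokines Cxcl9, Ccl20 and Ccl8. Clca1, a secreted protein of goblet cells, had the largest SD, at -3.94 in lung 1, -1.15 in lung 2 and 2.43 in lung 3 (SD 3.20, n = 3), an 83.1-fold span. Ngp, a granule protein of maturing neutrophils, stood at 0.02, -4.98 and -0.50, low in lung 2 by 32.0-fold. Nppa, the atrial natriuretic peptide, stood at 1.21, -3.22 and 1.25, again low in lung 2. Cxcl9, a chemokine induced by interferon gamma, stood at -1.97, 1.56 and -3.34, high in lung 2. Cyp1a1, a P450 enzyme induced through the aryl hydrocarbon receptor, stood at 1.21, -3.04 and -2.91, high in lung 1 only.

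Over the 20 genes of largest SD, lung 1 was the highest for 12, lung 2 for 5 and lung 3 for 3, and lung 2 was the lowest for 10. Lung 1 was highest for Mpo, the neutrophil peroxidase (-0.34, -5.07 and -3.04), for the protease Ctsg (-0.93, -4.58 and -3.21), for Acod1, which makes itaconate in activated macrophages (-1.07, -2.17 and -5.51), and for Asprv1, Mrgpra2b, Nmrk2 and Il1f9. Lung 2 was lowest for Camp, the cathelicidin of neutrophil granules (0.49, -3.23 and 0.25), and for the muscle genes Mybphl (-0.24, -3.21 and 0.20), Myl3 (0.74, -2.54 and 0.28) and Myh4 (-2.10, -5.31 and -2.37). Lung 2 was highest for the chemokines Ccl8 (-0.29, 3.21 and 0.53) and Ccl20 (-4.31, -0.47 and -2.97), for Saa3, an acute phase protein (0.95, 1.35 and -1.94), and for Plekhs1.

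These spreads were set beside measurements that the order by SD did not use. Of the 100 genes of largest SD, 10 had another probe detected in 3 of 3 lungs, and in 10 of 10 it put the same lung highest and the same lung lowest, against 33.0% of all genes with another probe. Those other probes read the same RNA on the same arrays. All genes with another probe had a median SD of only 0.177, so the 33.0% is not matched for spread. The SD within fibre groups was above the 90th percentile for 97 of the 100, against 9.96% of all genes. That share is not matched for level: the 100 had a median level of -1.99. The median SD within fibre groups was 0.379 below a level of -4 and 0.18 above 4. The fibre lungs on the slide of the saline lung that stood apart deviated from their own group means in the same direction for 62.0% of the 100 and for 68.3% of all genes detected in 3 of 3 lungs. The part of the slide in these differences was not tested. For 14 of the 20 genes a saline lung lay outside the range of the 11 fibre lungs, in 14 above it and in 4 of them also below it. The same held for 43.8% of all genes detected in 3 of 3 lungs, and the 20 were chosen for their spread among these saline lungs.

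**Figure D4:**
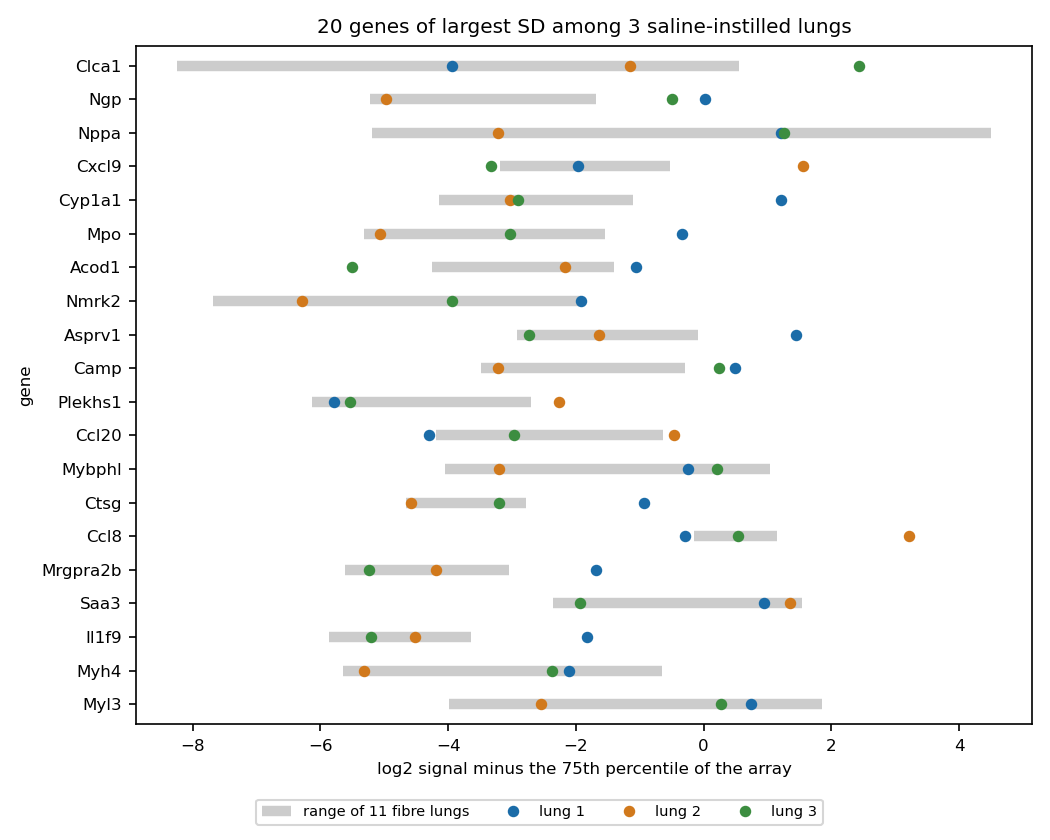
The x axis gives the log2 signal minus the 75th percentile of the array for the 20 genes of largest SD, with 1 point per saline lung and a grey bar for the range of the 11 fibre lungs. Lung 1 (blue) is the highest for 12 genes, lung 2 (orange) is the lowest for 10, and Clca1, Cyp1a1, Ccl8 and Mrgpra2b have a saline lung well above the grey bar.

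Neutrophil genes set lung 1 apart. The mean over the 17 detected neutrophil genes was 1.94 higher in lung 1 than in the mean of the others, lung 1 was the highest for 15 of 17, and 14 of 17 had an SD over 1, against 1.4% of all genes. S100a8, the partner of S100a9, stood at 6.11, 4.30 and 3.69, and the cytokine gene Il1b at 3.84, 1.34 and 0.49, a 10.2-fold span. Lungs 2 and 3 had the same list mean but differed gene by gene: Ngp, Camp and Mpo were lower in lung 2, Mmp9, a gelatinase, was lower in lung 3 (0.10, -1.08 and -1.64), and Ltf, the lactoferrin of granules, was highest in lung 2 (1.39, 2.52 and 1.49). Mmp9 and Ltf were picked with their values known. The fibre lungs lay from 1.10 below to 0.45 above the saline mean for this list, which leaves lung 1, at 1.29, above all 11. Monocyte genes moved the same way, lung 1 being the highest for 11 of 11 and 0.89 above the others in the mean; Nr4a1, a regulator of patrolling monocytes that is also an immediate early gene, stood at 5.94, 3.80 and 5.05. The fibre lungs on the slide of lung 1 deviated from their group means by -0.27 for neutrophil and -0.21 for monocyte genes.

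Heart-type muscle set lung 2 apart. The 12 cardiac genes, all detected in 3 of 3 lungs, were 2.04 lower in lung 2 than in the others, with 11 of 12 lowest there. The atrial myosin light chain Myl7 stood at 5.53, 3.12 and 5.81, and the troponin Tnnt2 at 3.63, 1.90 and 3.75. Myh7, a slow myosin heavy chain, was the exception, at 2.67, 3.28 and 3.11, highest in lung 2. The fibre lungs on the slide of lung 2 also lay low for this list, 1.88 below their group means, and over all fibre lungs the list had a within-group SD of 1.42. How much vein or heart tissue each sample held was not measured, and its part was not tested.

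Platelet genes were lowest in lung 3 and highest in lung 2. In the mean of 11 genes lungs 1, 2 and 3 lay at 0.1, 0.995 and -1.095 from the mean of the 3. Lung 3 was 1.64 below the mean of the others, and the lowest for 10 of 11. The platelet chemokine Ppbp stood at 1.52, 3.11 and 0.28, the receptor subunit Gp9 at 0.21, 1.69 and -1.42, and the integrin Itgb3 at 1.99, 2.44 and 1.39. The other platelet chemokine gene, Pf4, which macrophages also express, did not follow, at 2.72, 3.40 and 2.73. Lung 2 was the highest for these 4 genes, as it was for globins. The 11 fibre lungs lay from 0.30 to 1.82 above the saline mean for the platelet list and from 0.24 to 1.37 above it for the red cell list, so lungs 1 and 3 were below all of them for the first and lungs 2 and 3 for the second. NK cell genes were also lowest in lung 3, for 13 of 13, by 0.90 in the mean, with the granzyme Gzmb at 0.41, -0.60 and -1.38 and Nkg7 at 2.60, 2.35 and 1.59. The 16 cell division genes were all lowest in lung 3, by 0.67 in the mean, with the topoisomerase Top2a at -3.76, -4.45 and -5.25. Chemokine genes were 0.86 lower there, and lowest for 14 of 22. For that list lungs 1, 2 and 3 lay at 0.003, 0.567 and -0.57, with lung 2 the highest.

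Immediate early genes, which respond within minutes to handling, stress or growth signals, were lowest in lung 2 for 13 of 17, by 0.91 in the mean. Fos stood at 2.62, 0.15 and 1.08, Klf2, a flow-responsive endothelial factor, at 6.97, 5.72 and 6.22, and Junb at 6.51, 5.55 and 5.52. Klf4 was nearly level, at 5.84, 5.65 and 6.06, and Egr3 was detected in no lung. The clock gene Per1, which also responds to glucocorticoids, stood at 2.43, 0.82 and 1.61. The fibre lungs spanned only -0.26 to 0.46 around the saline mean for the immediate early list, inside the -0.60 to 0.58 of the 3 saline lungs. Goblet cell genes were lowest in lung 1, by 1.76 in the mean of 6: Tff2, a trefoil peptide of mucus, stood at -0.65, 1.64 and 1.50, and the gel-forming mucin Muc5b at -0.20, 1.08 and 1.57. Plasma cell genes were highest in lung 2 for 6 of 8, led by Jchain, the joining chain of secreted antibody, at 2.52, 4.60 and 1.29.

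**Figure D5:**
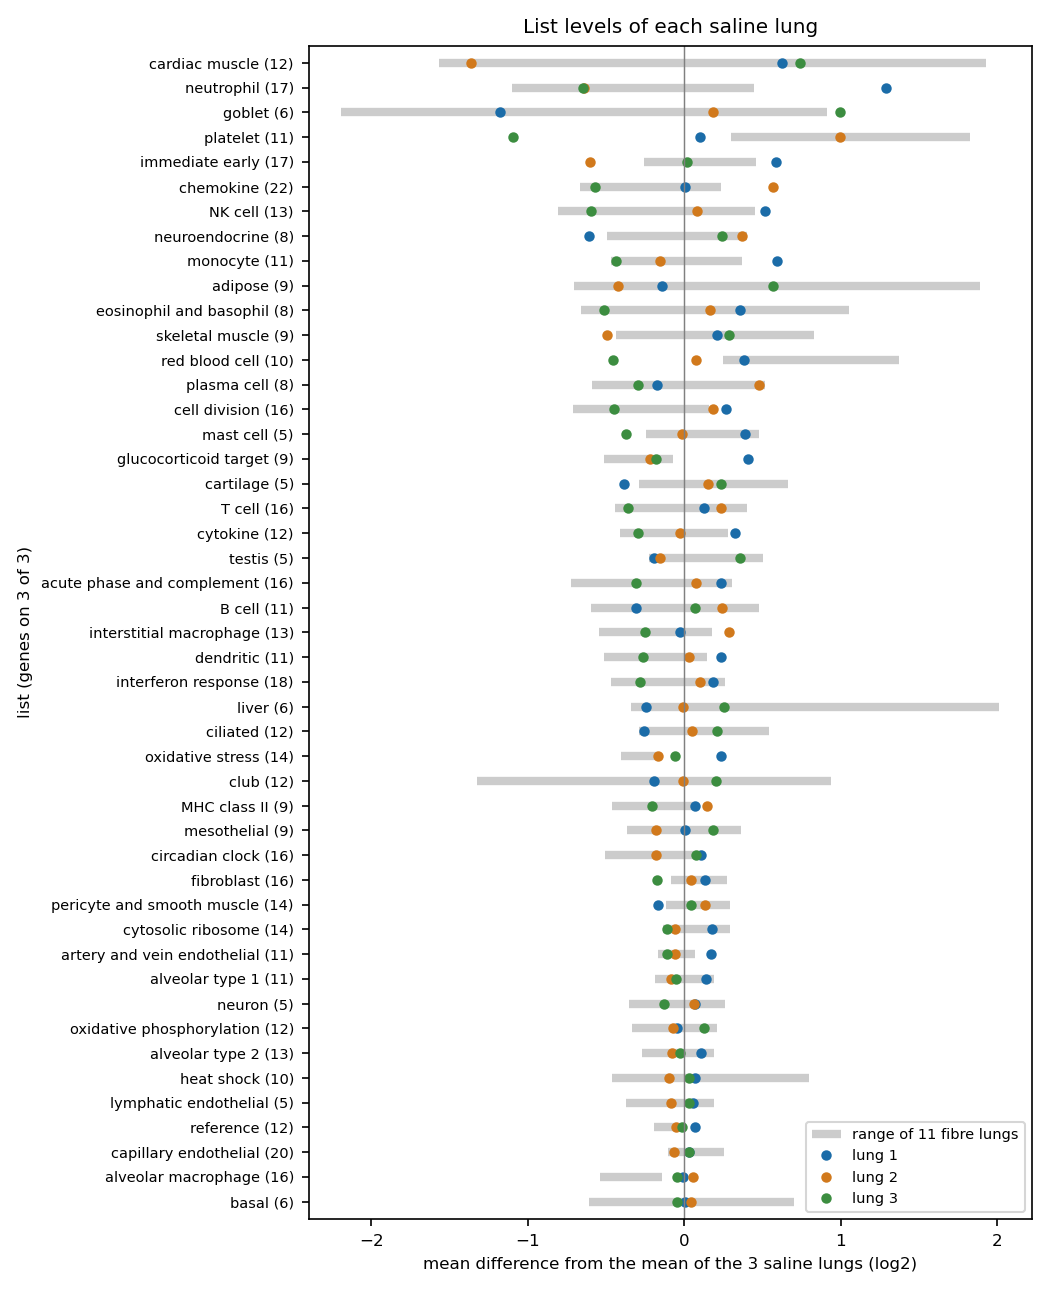
Each row is a list with at least 5 genes detected in 3 of 3 saline lungs; points give each saline lung's mean difference from the mean of the 3 (x axis, log2) and the grey bar the range of the 11 fibre lungs on the same scale. Cardiac muscle, neutrophil, goblet and platelet lists at the top spread by 1.94 to 2.17 between lungs, and the alveolar macrophage and capillary endothelial lists near the bottom by 0.10.

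Promoter sequences are shown for a few bright genes and a few variable ones, to set their core elements side by side. The window runs from 250 bases before to 50 bases after the annotated start, from RefSeq on GRCm38.p6, and was found for 13722 of the 17170 genes. TATAAA, the core of the TATA box, was searched on the gene's strand between 40 and 16 bases before the start. It was there in 2.67% of all promoters, in 12 of 90 (13.3%) among the 100 genes of largest SD, in 0 of 31 ribosomal protein genes among the 100 brightest and in 3 of the 44 other bright genes (6.82%). When TATATAA was counted as well, a choice made after the sequences were read, the shares were 3.13% of all promoters, 14 of 90 (15.6%) for the genes of largest SD, 1 of 31 for the bright ribosomal protein genes and 3 of 44 for the other bright genes. Anywhere in the 300 bases and on either strand TATAAA occurred in 12.2% of all promoters, in 25.6% for the genes of largest SD and in 26.5% for genes detected in no lung. The GC box core GGGCGG, on either strand, was in 52.3% of all promoters, in 60.1% for genes detected in 3 of 3 lungs, in 20.4% for genes detected in none and in 15.6% for the genes of largest SD. The median number of CpG dinucleotides was 16 over all promoters, 19 for genes detected in 3 of 3 lungs, 3 for genes detected in none and 4 for the genes of largest SD. These are descriptions of letters, and no factor's binding was measured.

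The sequences below are written 5′ to 3′ on the gene's strand, with TATAAA in capitals where it lies in the window of 40 to 16 bases before the start. Rps18 (chr17:33955616-33955915, minus strand) is the brightest ribosomal protein gene with a window and has 24 CpG dinucleotides and no TATAAA there. Hbb-bt (chr7:103813874-103814173, minus strand) and Sftpa1 (chr14:41131538-41131837, plus strand) are the brightest other genes with one, starting 28 and 30 bases before the start. Cyp1a1 (chr9:57697363-57697662, plus strand), Acod1 (chr14:103046762-103047061, plus strand) and Ccl8 (chr11:82114935-82115234, plus strand) have the largest SDs among genes with one, starting 30, 28 and 32 bases before the start, and hold 4, 2 and 2 CpG dinucleotides.
Rps18: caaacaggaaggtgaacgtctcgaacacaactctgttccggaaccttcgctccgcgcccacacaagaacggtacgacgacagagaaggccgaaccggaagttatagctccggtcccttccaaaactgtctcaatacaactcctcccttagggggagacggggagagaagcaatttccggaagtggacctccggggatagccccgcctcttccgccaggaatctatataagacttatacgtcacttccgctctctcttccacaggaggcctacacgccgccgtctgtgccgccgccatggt
Hbb-bt: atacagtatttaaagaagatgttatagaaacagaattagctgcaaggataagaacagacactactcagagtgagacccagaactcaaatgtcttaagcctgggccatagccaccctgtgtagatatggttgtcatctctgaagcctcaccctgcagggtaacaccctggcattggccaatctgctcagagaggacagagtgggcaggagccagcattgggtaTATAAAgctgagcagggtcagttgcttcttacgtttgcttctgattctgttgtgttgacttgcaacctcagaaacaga
Sftpa1: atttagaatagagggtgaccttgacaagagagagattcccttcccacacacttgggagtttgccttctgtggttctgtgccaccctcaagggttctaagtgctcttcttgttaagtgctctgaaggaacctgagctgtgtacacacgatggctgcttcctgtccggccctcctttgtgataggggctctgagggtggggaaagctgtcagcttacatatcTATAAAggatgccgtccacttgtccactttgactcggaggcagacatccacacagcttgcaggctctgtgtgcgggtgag
Cyp1a1: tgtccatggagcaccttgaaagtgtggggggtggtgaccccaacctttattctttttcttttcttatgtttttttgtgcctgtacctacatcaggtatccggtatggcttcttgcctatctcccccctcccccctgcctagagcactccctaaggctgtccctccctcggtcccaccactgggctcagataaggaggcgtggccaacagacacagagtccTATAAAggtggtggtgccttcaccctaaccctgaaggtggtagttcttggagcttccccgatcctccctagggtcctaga
Acod1: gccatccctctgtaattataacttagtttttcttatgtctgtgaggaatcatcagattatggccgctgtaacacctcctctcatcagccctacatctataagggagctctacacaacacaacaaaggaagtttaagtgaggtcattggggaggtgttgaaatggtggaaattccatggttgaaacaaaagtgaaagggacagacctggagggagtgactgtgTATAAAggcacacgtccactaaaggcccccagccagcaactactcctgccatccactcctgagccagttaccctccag
Ccl8: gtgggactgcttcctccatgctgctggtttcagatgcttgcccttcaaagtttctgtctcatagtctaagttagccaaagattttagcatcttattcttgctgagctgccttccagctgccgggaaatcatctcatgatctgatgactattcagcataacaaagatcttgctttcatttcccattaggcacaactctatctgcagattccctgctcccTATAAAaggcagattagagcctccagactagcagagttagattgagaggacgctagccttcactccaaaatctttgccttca
Rps18 holds TATATAA, another spelling of the TATA box, 28 bases before its start, where the bright Hbb-bt and Sftpa1 hold TATAAA, and so do Cyp1a1, high in lung 1, Acod1, low in lung 3, and Ccl8, high in lung 2. The other 9 genes with it among the 100 of largest SD were Myh4, Il1b, Art1, Wfdc18, Ppbp, Trim63, Serpinb2, S100a8 and Fos.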

How the data were processed

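Whole-lung RNA of 14 mice was labelled with Cy3 and hybridised, 1 lung per array, and the 3 Ctrl arrays are described here. Per the file headers, the deposited scanner output came from version 10.7.3.1 of Agilent's Feature Extraction and gives a processed intensity, background-subtracted but not scaled between arrays. Other deposited columns hold that program's flags for outlier spots and for signal well above background. The authors' deposited value table has log2 values and equals log2 intensity minus 1 constant per array, within 0.01, for 100% of its 27496 probes; how its probes were chosen is not given in the sources used here.

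Outlier and control spots were left out, spots of a probe were averaged on the log2 scale (41174 probes), and each array's 75th percentile was subtracted. A probe counted as detected where over a share of 0.5 of its spots carried the flag. Gene names came from RefSeq transcripts on GRCm38.p6: 24836 probes matched 1 symbol (17174 genes, of which 17170 were measured in 3 of 3 lungs) and 16338 matched none. A gene was read at its brightest probe.

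With a single group no test was made, and SD and n describe the spread between 3 independent animals by the design text. Fibre lungs are set beside as ranges only. The members and the 52 gene lists (598 of 631 genes measured) were chosen with earlier results of these data known. Genes named are the 20 brightest, the 3 brightest and the undetected members of each list, the 20 of largest SD, the most variable member of each list, the 5 steadiest of the 1000 brightest, the 5 brightest detected in 1 lung, and the reference and sex-linked genes, a few of which are not reported here; genes named for a promoter element lie outside this rule and were picked with their values known. Alternatives were normexp background correction (limma 3.58.1, R 4.3.3, offset 50, on median spot signals since mean signals were not used here), quantile normalization, other scaling, the deposited table, the mean over a gene's probes, other filters, and leaving out each array. Python 3.11.15, pandas 2.3.3 and matplotlib 3.10.9 were used.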

Additional observations from a re-analysis of the deposited data

How the results depend on the processing

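The number of arrays limits the precision: an SD over 3 lungs is itself uncertain, and 3 lungs on 3 slides cannot separate animal, tissue piece and slide. Dim genes have the larger median SD, 0.331 below a level of -4 against 0.147 above 4. The 100 genes of largest SD are not the dimmest, with a median level of -1.99. The differences of the 6 lists recomputed (neutrophil, platelet, cardiac muscle, goblet, immediate early and NK cell) kept their sign in all settings run, and each stayed within 1 SD of the reported value. That SD is of the list mean over the same 3 lungs, so it grows with the difference itself and is a wide limit. It was 1.12 for neutrophil and 1.18 for cardiac muscle genes. Leaving out the lung that stood apart was not among these settings. The count of genes detected in 3 of 3 lungs, 13539 here, was 13518 to 14915, and that of genes detected in none, 2604 here, depended on the flag and the probes. The softer flag gIsPosAndSignif left 1064 genes detected in no lung, and the probes of the deposited table left 3; the cause was not tested. Of the 100 brightest genes 78 were shared when probes of a gene were averaged and 92 with normexp.

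The genes of large SD depended most on the background correction. With normexp 1576 genes had an SD over 1, the median SD was 0.313, and 24 of the 100 genes of largest SD were shared; those 1576 genes had a median level of -4.92. Among genes of levels over 0, 42 had an SD over 1 with normexp and 47 without it, of which 38 were shared. Of the 20 named genes of largest SD, 14 kept an SD over 1. A filter of 2 of 3 lungs gave 291 genes of SD over 1 and 61 shared of the 100, and no filter gave 558 and 28, with more genes entering. Leaving out 1 lung gave 161 to 284 genes of SD over 1, and 45 (without lung 2) to 64 (without lung 3) shared of the 100. Among the 20 named genes, 15, 10 and 18 kept an SD over 1 without lungs 1, 2 and 3, which follows from the lung that stood apart being left out. The neutrophil difference was 1.43 to 1.97, the cardiac muscle difference -2.10 to -1.23 and the platelet difference -2.09 to -1.20 over the settings run for these lists. No paired analysis was possible because a single group is described.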

Other observations

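Probes without a gene name held signal too. Of 16333 such probes measured in 3 of 3 lungs, 6359 (38.9%) were well above background in each, against 77.8% of the 24826 probes with a name. The brightest, A_51_P303097, stood at 8.55, 8.52 and 8.61 in lungs 1, 2 and 3, a mean that only 4 named genes exceeded (Sftpc, Scgb1a1, Cbr2 and Rps14). The largest SD of any such probe was 4.00, for A_51_P311235, at -0.62, 5.89 and -1.40; a second probe of the same transcript record, A_51_P351953, stood at -3.06, 2.50 and -4.28. Both were high in lung 2, the lung that was also highest for Jchain (4.60) and Cxcl9 (1.56).

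Of the 47 lists with at least 5 detected genes, the saline lungs all lay above the range of the 11 fibre lungs for 2, those of alveolar macrophages and of oxidative stress. The alveolar macrophage list ran from -0.05 to 0.05 around the saline mean in the saline lungs and from -0.54 to -0.14 in the fibre lungs. The oxidative stress list ran from -0.17 to 0.23 in saline lungs and from -0.41 to -0.18 in fibre lungs, where the lowest saline lung and the highest fibre lung nearly touch. These ranges share the saline lungs as their zero, and the difference was not tested here. A saline lung lay outside the fibre range for 24 of the 47 lists.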
